A study of Mus musculus with 2 samples.

Results

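The 9 genes described here are Gpnmb, Atp6v0d2, Trem2, Spp1, Fabp5, Cd36, Lpl, Apoe and Cd9. Grouped as macrophage lipid and lysosome genes, these are 9 of the 32285 genes counted in the series. They were chosen by name with their levels in these nuclei known, so those levels are given as a description and not as a test. The data are single-nucleus RNA sequencing of the tibialis anterior, the shin muscle, from male mice aged 16 to 20 weeks. The mice had chronic kidney disease, and their muscle had been ischaemic for 5 days because the femoral artery was ligated. One library is labelled AHRfl/fl (floxed Ahr) and 1 is labelled AHRmKO (Ahr deleted in muscle). The strain label is the same for both libraries, a cross between the lines AHRtm3.1Bra/J and Tg(ACTA1-cre/Esr1*)2Kesr/J. In the second line a skeletal muscle actin promoter drives a Cre recombinase that carries an oestrogen receptor domain. The promoter acts in muscle fibres, so the design does not place the deletion in macrophages. The number of animals behind a library and any treatment that activates the Cre are not given in the sources used here.

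Macrophages enter ischaemic muscle to clear dead fibres, and the membranes they take up load them with cholesterol and fatty acids. Scavenger receptors bind the debris, the acid of the lysosome and its enzymes break it down, and apolipoproteins carry the cholesterol out again. Macrophages under such a load are known to raise Trem2, Gpnmb, Spp1, Cd9, Fabp5 and Lpl together in fat, artery and brain.

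Each count is a unique molecular identifier (UMI), which marks 1 captured RNA molecule. A level is a count per 1000000 UMIs (CPM) of the class of nuclei, or group of barcodes, that it is given for. Barcodes with at least 2000 UMIs were taken as nuclei, 19056 in the AHRfl/fl library (median 3804 UMIs) and 9015 in the AHRmKO library (median 3596 UMIs), and 43 barcodes occurred in both. Macrophage nuclei were those with at least 4 UMIs summed over Ptprc, Dock2, Arhgap15, Myo1f and Ly86, which gave 9323 nuclei (48.9%) in the AHRfl/fl library and 3039 (33.7%) in the AHRmKO library, with medians of 3337 and 3532 UMIs. At the threshold, 209 and 173 nuclei had exactly 4 such UMIs, and 456 and 232 had 3 and stayed out. These 5 genes mark leukocytes in general, and 97.5% and 98.0% of the nuclei also had a UMI of Csf1r, Adgre1 or Mertk. The same share in other nuclei was not counted. In macrophage nuclei these 3 genes ran from 345 to 1249 CPM and from 369 to 1380. In other nuclei they ran from 29.8 to 47.0 and from 16.7 to 63.1. Ahr, the targeted gene, stood at 32.4 CPM in muscle fibre nuclei of the AHRfl/fl library (531 UMIs) and at 29.3 in those of the AHRmKO library (285 UMIs), with overlapping intervals. Reads from outside the deleted stretch also count, so this is no check of the deletion, and each direction given here is between libraries as labelled.

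With 1 library per group there is no replicate, no test and no p-value. Brackets give exact 95% intervals, Poisson for levels, binomial for shares and conditional binomial for ratios, and all cover counting error only. Those for levels and ratios take UMIs as independent, though UMIs of a gene cluster in nuclei. In macrophage nuclei of the AHRmKO library the variance over mean ran from 1.46 for Trem2 to 41.3 for Cd36. Intervals that allowed for the spread between nuclei would thus be wider. Log2 ratios were taken after adding 0.5 CPM to each level, so they understate changes of low genes. Scaling by trimmed means or by median ratios in place of totals raised every log2 ratio between the libraries' macrophage nuclei by 0.15 or 0.18. Barcodes with at least 200 and under 500 UMIs, here called shallow barcodes, are too poor to count as nuclei and were taken to show the RNA outside nuclei in the preparation. They held 21.9% of all UMIs in the AHRfl/fl library and 42.0% in the AHRmKO library, so each level in nuclei is set beside the level there. Poor nuclei were not excluded from these barcodes, which held 1226 and 1234 CPM of the 5 genes used to call macrophage nuclei.

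The stretch upstream of a gene's start is where factors that set a cell type's expression often bind, and the sequences shown are those of the 3 members in which a searched motif was found. RefSeq windows (GRCm38.p6) were found for 6 of the 9 members, Gpnmb, Trem2, Spp1, Cd36, Apoe and Cd9. The first 3 lines hold the 250 bases before the start and the last a stretch of 30 bases around the start of Gpnmb, all on the plus strand, with the searched motifs in capitals. One start was taken per gene, the most upstream in the table, which lists 2 for Spp1, 3 for Apoe and 1 for each of the others.
Spp1, chr5:104434861-104435110: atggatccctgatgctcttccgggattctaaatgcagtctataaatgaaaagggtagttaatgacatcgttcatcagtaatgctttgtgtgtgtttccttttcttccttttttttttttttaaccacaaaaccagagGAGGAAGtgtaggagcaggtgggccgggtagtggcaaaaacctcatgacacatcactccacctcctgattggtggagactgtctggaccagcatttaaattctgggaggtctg
Trem2, chr17:48346151-48346400: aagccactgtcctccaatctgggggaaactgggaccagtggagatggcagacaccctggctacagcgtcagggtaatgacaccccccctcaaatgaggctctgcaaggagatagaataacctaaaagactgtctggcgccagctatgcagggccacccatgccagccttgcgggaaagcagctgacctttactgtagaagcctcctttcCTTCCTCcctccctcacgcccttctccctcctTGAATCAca
Gpnmb, chr6:49036268-49036517: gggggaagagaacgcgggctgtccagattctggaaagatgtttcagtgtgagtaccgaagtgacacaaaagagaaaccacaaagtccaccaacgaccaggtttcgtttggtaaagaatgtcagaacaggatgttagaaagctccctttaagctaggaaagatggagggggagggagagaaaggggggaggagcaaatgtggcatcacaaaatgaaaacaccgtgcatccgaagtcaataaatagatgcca
Gpnmb around its start, chr6:49036514-49036543: gccaggggcaagTGACTCAtgagcacgagt
The motifs, chosen after the sequences had been seen, were GAGGAAG (the core bound by PU.1, the factor that sets macrophage identity), TGANTCA (AP-1), TCATGTG (the M-box of the MITF family) and CACGTG (the E-box at the centre of the lysosomal CLEAR element), each on both strands from 250 bases before to 50 after the start. GAGGAAG lies 113 bases before the start of Spp1 and, read on the other strand as CTTCCTC, 41 before that of Trem2. TGANTCA allows any middle base and is thus a loose form of the AP-1 site. It lies 9 bases before the start of Trem2, as TGAATCA, and 8 after that of Gpnmb, as TGACTCA, with starts as RefSeq places them. GENCODE, used for the gene spans in the text, starts Gpnmb at 49036546, past that site. At the starts taken, the windows of Cd36, Apoe and Cd9 hold none of the 4 (that of Cd36 lies inside its GENCODE span, that of Cd9 reaches 31 bases into the span of Cd9, and other starts were not searched), and no member's window holds TCATGTG or CACGTG. No matches overlap. Over all 32851 such windows, GAGGAAG occurs in 13.6%, TGANTCA in 7.81%, CACGTG in 7.15% and TCATGTG in 3.77%, so the matches are a description of letters and not of binding.

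In macrophage nuclei the 9 genes did not move together between the libraries. Apoe, Spp1, Cd9 and Fabp5 were at least 2-fold lower in the AHRmKO library, Cd36 was at least 2-fold higher, and Trem2, Gpnmb, Lpl and Atp6v0d2 lay within 2-fold. The calls of Fabp5 and Cd9 ended when the level in fibre and satellite cell nuclei was subtracted (log2 ratios -0.38 and -0.75). For Cd9 this may take away too much, since satellite cell nuclei held as much Cd9 as macrophage nuclei. A subtraction of the shallow profile took Apoe and Cd9 to 0 in the AHRfl/fl library alone, which turned their direction, and Spp1 and Fabp5 to 0 in both. These 4 then had no ratio, so that step cannot say whether their calls hold. Before any subtraction, 4 of 9 were at least 2-fold lower and 1 of 9 at least 2-fold higher. These counts stand beside 16.4% and 3.18% of the 19703 genes with at least 10 UMIs in macrophage nuclei over both libraries. The members' median log2 ratio was -0.72 and that of all 19703 genes -0.16. Since the members were chosen with these levels known, the counts describe them and support nothing further. In the shallow barcodes 7 of the same 9 genes were at least 2-fold lower in the AHRmKO library and none at least 2-fold higher, beside 22.6% and 8.92% of 19583 genes. All 9 were lower there to some degree, and the share of all genes lower to any degree was not counted. The members' median there was -2.42 and that of the 19583 genes -0.11.

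**Figure D1:**
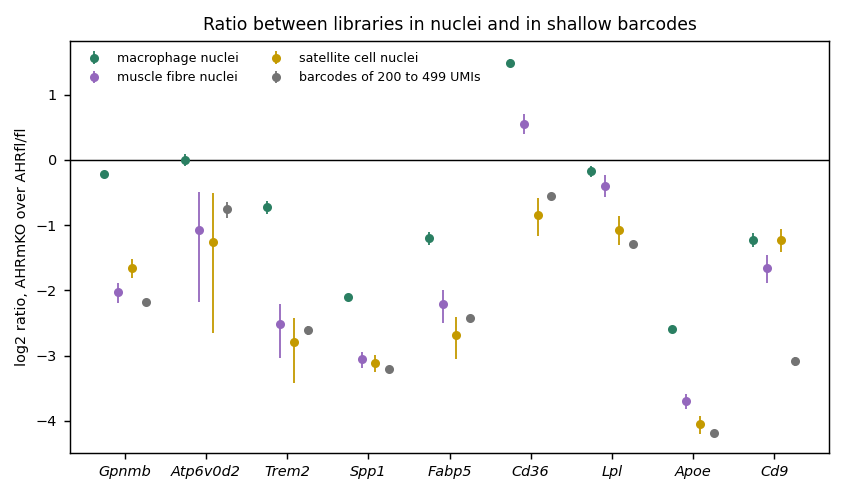
Log2 ratio of the AHRmKO over the AHRfl/fl library (vertical axis) for each gene, in macrophage, muscle fibre and satellite cell nuclei and in barcodes of 200 to under 500 UMIs. Points are ratios with 0.5 CPM added and bars are exact 95% counting intervals, with 1 library per group. In macrophage nuclei the ratios run from -2.59 for Apoe to 1.49 for Cd36, and in the shallow barcodes all 9 lie below 0. The share of all genes below 0 there was not counted, and their median is -0.11.

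Among the receptors, Trem2 is a lipid-sensing receptor of myeloid cells (ENSMUSG00000023992, chromosome 17, 48346401 to 48354147, GRCm38). It stood at 110 CPM in macrophage nuclei of the AHRfl/fl library (107 to 113; 4863 UMIs) and at 66.4 in those of the AHRmKO library (62.4 to 70.6; 1034 UMIs), a log2 ratio of -0.72 (-0.83 to -0.63). In the shallow barcodes it was at 312 and 51.0. Trem2 was therefore lower in macrophage nuclei than in the shallow barcodes of the AHRfl/fl library and higher in those of the AHRmKO library. In nuclei of the 5 other named classes it ran from 35.7 to 43.3 in the first library and from 5.34 to 6.37 in the second. Over the settings that gave a value, the log2 ratio of Trem2 between the libraries' macrophage nuclei ran from -0.83 to -0.24. With a share of the shallow profile subtracted, Trem2 was at 0 and 24.0 there, so its direction turned.

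Cd36, a scavenger receptor for oxidised lipoproteins and long-chain fatty acids (ENSMUSG00000002944, chromosome 5, 17781690 to 17888801, minus strand), was the member that went the other way. It stood at 181 CPM in macrophage nuclei of the AHRfl/fl library (178 to 186; 8016 UMIs) and at 512 in those of the AHRmKO library (500.5 to 523; 7965 UMIs), which is 2.81-fold higher (log2 ratio 1.49, 1.45 to 1.54). In the shallow barcodes it was at 271 and 186, so the direction there was opposite. With each nucleus thinned to 2000 UMIs the log2 ratio was 0.97, just under 2-fold, and in nuclei with at least 5000 UMIs it was 2.04. With a share of the shallow profile subtracted and levels scaled to the UMIs left, it was 3.28. Up to 192 Cd36 UMIs came from 1 nucleus of the AHRmKO library and up to 56 from 1 nucleus of the AHRfl/fl library.

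Cd36 was not particular to macrophages. Endothelial cells and fat cells use it for fatty acid uptake, and their nuclei held 382 and 310 CPM in the AHRfl/fl library, both above the macrophage level there. In the AHRmKO library the order was macrophage nuclei, then endothelial at 452 (413 to 494) and adipocyte nuclei at 407 (362 to 456), and the last pair had overlapping intervals. That order is of summed UMIs, and the tenth of macrophage nuclei with the most Cd36 held 79.6% of them there. With each nucleus thinned to 2000 UMIs, fewer macrophage nuclei (28.4%) than endothelial (42.5%) or adipocyte nuclei (39.4%) of that library had a Cd36 UMI. Satellite cell nuclei, from the stem cells of muscle, held 37.0 and 20.3, and fibroblast nuclei 39.7 and 27.7.

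Cd9, a tetraspanin that organises receptors and adhesion molecules in the membrane (ENSMUSG00000030342, chromosome 6, 125460266 to 125494791, minus strand), stood at 122 in macrophage nuclei of the AHRfl/fl library (119 to 126; 5409 UMIs) and at 52.1 in those of the AHRmKO library (48.6 to 55.8; 811 UMIs). The log2 ratio was -1.23 (-1.34 to -1.13). Macrophage nuclei did not stand out for Cd9 in either library. Satellite cell nuclei held 125 and 53.2, with intervals that overlap those of macrophage nuclei, and endothelial nuclei held 183 and 154. Antisense genes, Gm28809 (104 and 10 UMIs) and Gm26728 (31 and 12 UMIs), overlap Cd9, and whether the counting used strand is not given in the sources used here.

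Of the genes for lipid binding and transport, Apoe had the ratio farthest from 0. Apolipoprotein E (ENSMUSG00000002985, chromosome 7, 19696109 to 19699188, minus strand) carries cholesterol out of loaded macrophages. It stood at 2863 CPM in macrophage nuclei of the AHRfl/fl library (2848 to 2879; 126471 UMIs) and at 474 in those of the AHRmKO library (463 to 485; 7373 UMIs), 6.04-fold lower (log2 ratio -2.59, -2.63 to -2.56). In the shallow barcodes it was at 8436 and 465, 18.1-fold lower. The gap between the libraries was thus larger in the shallow barcodes than in macrophage nuclei. Muscle fibre nuclei, which are not known as a source of Apoe, held 945 and 72.8. With the level of fibre and satellite cell nuclei subtracted, Apoe in macrophage nuclei was at 1824 and 402, still lower in the AHRmKO library. With a share of the shallow profile subtracted, it was at 0 and 86.1, so its direction turned, but that step may take away too much. How much of the macrophage ratio is free RNA was not tested.

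Fabp5 binds fatty acids in the cytosol (ENSMUSG00000027533, chromosome 3, 10012548 to 10016607). It stood at 138 in macrophage nuclei of the AHRfl/fl library (134 to 141; 6088 UMIs) and at 60.1 in those of the AHRmKO library (56.3 to 64.1; 936 UMIs), a log2 ratio of -1.19 (-1.30 to -1.10). The shallow barcodes held 663 and 123, the highest level of Fabp5 in both libraries. Endothelial nuclei (126 and 44.6) and adipocyte nuclei (120 and 42.1) came next after macrophage nuclei. Their intervals in the AHRfl/fl library, 110 to 145 and 100.5 to 142, take in the macrophage level.

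Lipoprotein lipase, encoded by Lpl (ENSMUSG00000015568, chromosome 8, 68880491 to 68907448), frees fatty acids from circulating triglyceride. It stood at 129 in macrophage nuclei of the AHRfl/fl library (126 to 133; 5712 UMIs) and at 114 in those of the AHRmKO library (109 to 120; 1782 UMIs), a log2 ratio of -0.18 (-0.25 to -0.10) that was 0.0012 with median-ratio scaling. Lpl was highest in adipocyte nuclei, at 951 (894 to 1010) and 1378 (1294 to 1465), the cell type best known for it. Fibroblast nuclei held 142 and 190, also above macrophage nuclei in both libraries. Of the Lpl UMIs in all nuclei, macrophage nuclei held 56.4% and 40.3%. Of the UMIs of all genes in nuclei, they held 44166634 of 90032267 in the AHRfl/fl library and 15566536 of 43740909 in the AHRmKO library. The Lpl shares thus partly follow the size of the class.

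Among the lysosome genes, Gpnmb encodes a glycoprotein of lysosomes and phagosomes (ENSMUSG00000029816, chromosome 6, 49036546 to 49070929). It stood at 1252 CPM in macrophage nuclei of the AHRfl/fl library (1242 to 1263; 55312 UMIs) and at 1075 in those of the AHRmKO library (1059 to 1092; 16739 UMIs), a log2 ratio of -0.22 (-0.24 to -0.19). In the shallow barcodes it was at 1275 and 283. Gpnmb was thus 1.16-fold lower in macrophage nuclei of the AHRmKO library and 4.5-fold lower in its shallow barcodes. In macrophage nuclei with at least 5000 UMIs it was higher in the AHRmKO library (log2 ratio 0.19).

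Atp6v0d2 encodes the d2 subunit of the proton pump that acidifies the lysosome, a form known from osteoclasts and macrophages (ENSMUSG00000028238, chromosome 4, 19876841 to 19922605, minus strand). It stood at 89.1 in macrophage nuclei of both libraries (86.3 to 91.9, 3934 UMIs, and 84.5 to 93.9, 1387 UMIs), a log2 ratio of 0.00 (-0.09 to 0.09). Outside macrophages it was nearly absent. The 5 other named classes ran from 3.0 to 9.1 in the AHRfl/fl library and from 1.56 to 4.07 in the AHRmKO library. Macrophage nuclei held 93.3% and 95.4% of its UMIs in nuclei, the highest share among the members, and it was the only member above the shallow barcodes (35.8 and 21) by at least 2-fold in both libraries.

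The secreted member, Spp1, encodes osteopontin, a matrix protein and cytokine that binds integrins and CD44 (ENSMUSG00000029304, chromosome 5, 104435118 to 104441050). It stood at 1256 CPM in macrophage nuclei of the AHRfl/fl library (1246 to 1267; 55478 UMIs) and at 294 in those of the AHRmKO library (286 to 303; 4578 UMIs), 4.27-fold lower (log2 ratio -2.09, -2.14 to -2.05). In the shallow barcodes it was at 4432 and 480, 9.22-fold lower. Every other named class also held it, from 476 to 704 in the first library and from 57.0 to 77.3 in the second. Spp1 was thus lower in macrophage nuclei than in the shallow barcodes of the same library, in both libraries.

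**Figure D2:**
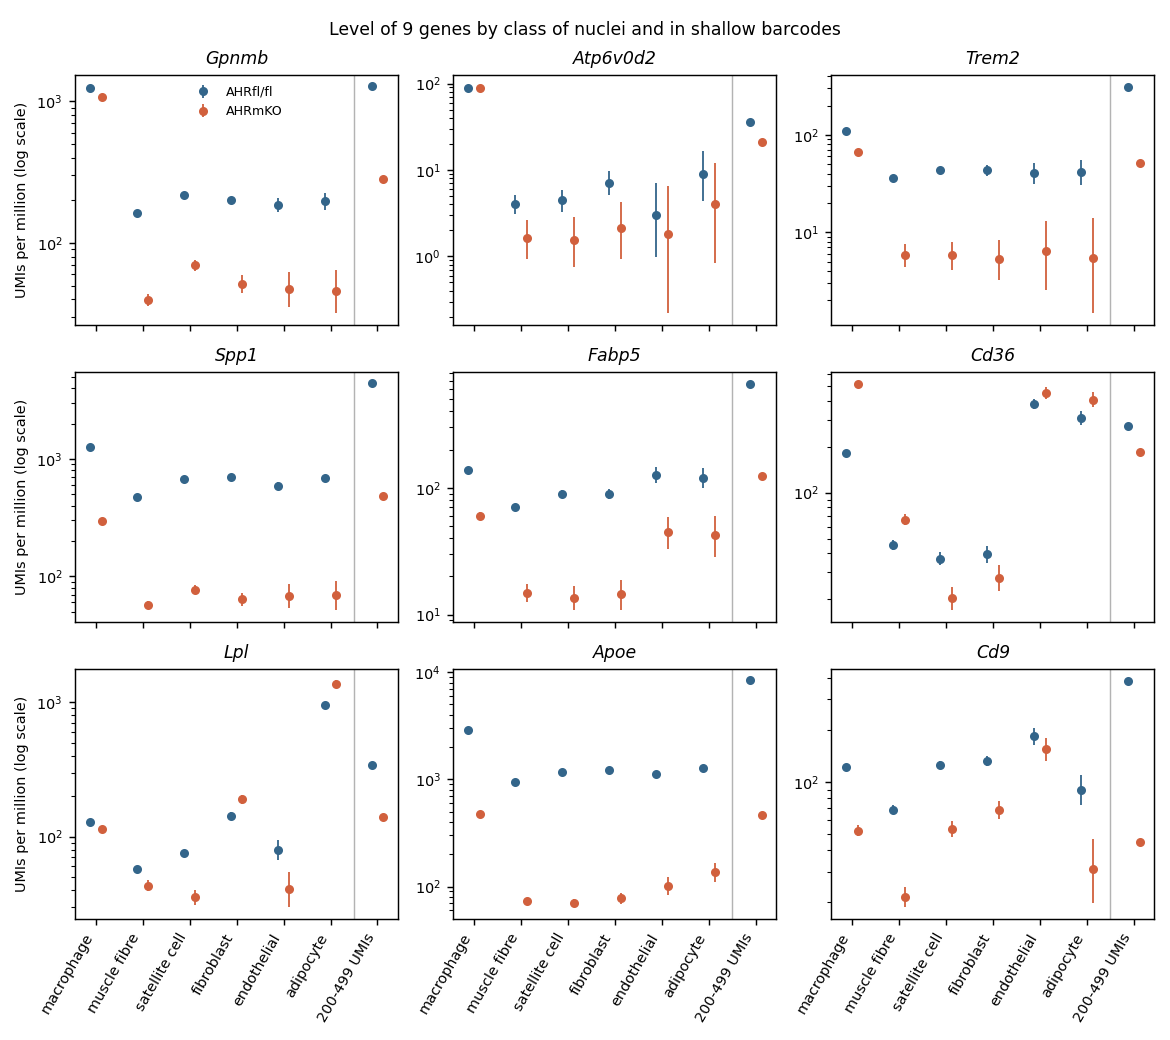
Level of each gene in CPM (vertical axes, log scale) by class of nuclei and in barcodes of 200 to under 500 UMIs, set apart by the grey line. Points are sums over 1 library and bars are exact Poisson 95% intervals. Gpnmb and Atp6v0d2 stand highest among nuclei in macrophages, at 1252 and 1075 and at 89.1 in both libraries, while Lpl is highest in adipocyte nuclei, at 951 and 1378.

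Set against all other nuclei of the same library, 6 of 9 members in the AHRfl/fl library and 7 of 9 in the AHRmKO library were at least 2-fold higher in macrophage nuclei, beside 10.8% and 13.5% of genes with at least 10 UMIs. Atp6v0d2 led with log2 ratios of 3.76 and 4.96, followed by Gpnmb with 2.70 and 4.25. Cd36 (1.57 and 2.88), Trem2 (1.46 and 3.24), Apoe (1.41 and 2.59) and Spp1 (1.05 and 2.02) came next. Fabp5 was at 0.72 and 1.67, so it passed 2-fold in the AHRmKO library alone. Lpl (0.42 and 0.29) and Cd9 (0.25 and 0.25) were close to the level of other nuclei. Among nuclei, macrophages were not the highest class for Lpl (adipocyte) or Cd9 (endothelial) in either library, or for Cd36 (endothelial) in the AHRfl/fl library, and there the data go against the name of macrophage genes.

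The order was different against the shallow barcodes. In the AHRfl/fl library 1 member was at least 2-fold higher in macrophage nuclei, Atp6v0d2 (log2 ratio 1.30), and 6 were at least 2-fold lower, beside 24.5% and 14.5% of genes. In the AHRmKO library 3 were at least 2-fold higher, Atp6v0d2 (2.06), Gpnmb (1.92) and Cd36 (1.46), and 1 was at least 2-fold lower, Fabp5 (-1.03), beside 16.8% and 8.46%. For 4 of 9 members the macrophage level was below the shallow level in the AHRfl/fl library and above it in the AHRmKO library by more than counting error, and for none the reverse, beside 10.5% and 6.66% of 18296 genes. For Trem2, Spp1, Apoe and Gpnmb, nuclei of the 5 other named classes held a small fraction of the shallow level, from 0.107 to 0.172 in the AHRfl/fl library and from 0.105 to 0.292 in the AHRmKO library. Cd36, Lpl and Cd9 lay above these fractions in the classes known to make them. Lpl in adipocyte nuclei was at 2.77 and 9.84 times its shallow level, Cd36 in endothelial nuclei at 1.41 and 2.43 times, and Cd9 there at 0.480 and 3.42 times.

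Because the other classes carried these UMIs too, the level of fibre and satellite cell nuclei was subtracted from that of macrophage nuclei within each library, a choice made after seeing the data. Atp6v0d2 kept 95.3% and 98.2% of its level, and Gpnmb 85.1% and 95.2%. Spp1 kept 55.6% and 77.9%, Apoe 63.7% and 84.8%, and Trem2 64.8% and 91.2%. Cd9 kept the least, 24.9% and 34.5%. Satellite cell nuclei held Cd9 at 0.327 and 1.18 times its shallow level. Fibre nuclei of the AHRmKO library held Cd36 at 0.359 and Lpl at 0.309 times theirs. These lie above the fractions of Trem2, Spp1, Apoe and Gpnmb given above. For Cd9, Cd36 and Lpl the first subtraction may thus also remove RNA that these classes make, which was not tested. After this step Apoe (1824 and 402) and Spp1 (699 and 229) were still at least 2-fold lower in the AHRmKO library, while Fabp5 (59.7 and 45.8) and Cd9 (30.5 and 18.0) no longer were, so the count of members at least 2-fold lower went from 4 to 2. A second subtraction used fibre genes to set the share of the shallow profile in macrophage nuclei, 48.1% and 83.3%, and took Apoe, Spp1, Trem2, Fabp5, Lpl and Cd9 to 0 in the AHRfl/fl library and Spp1, Fabp5 and Lpl in the AHRmKO library. The AHRmKO library kept 86.1 of Apoe, 24.0 of Trem2 and 14.7 of Cd9, so under this subtraction the direction of these 3 turned. Nuclei of the other named classes held 0.107 to 0.172 and 0.105 to 0.292 of the shallow level of Trem2, Spp1, Apoe and Gpnmb. Those fractions are far below 48.1% and 83.3%, so this subtraction may take away too much. Its zeros, turned directions and ratios carry that limit. No member above 0 in both libraries was at least 2-fold lower, Gpnmb was at 639 and 840, and Cd36 at 50.9 and 357. Atp6v0d2 was at 71.8 and 71.6. These levels are per 1000000 UMIs before the subtraction. Scaled to the UMIs left after it, the log2 ratios between libraries were 0.88 for Gpnmb, 3.28 for Cd36 and 0.47 for Atp6v0d2.

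Gene length was set beside the ratio of nuclear to shallow level. Nuclear RNA holds unspliced transcripts, and long genes with many introns are often counted more in nuclei than in free RNA. Cd36 spans 107112 bases, Atp6v0d2 45765, Cd9 34526, Gpnmb 34384 and Lpl 26958, while Trem2 spans 7747, Spp1 5933, Fabp5 4060 and Apoe 3080. In the AHRfl/fl library 8 of the 9 members were lower in macrophage nuclei than in the shallow barcodes, the 4 short ones and, among the long ones, Cd9 (log2 ratio -1.64), Lpl (-1.40), Cd36 (-0.58) and Gpnmb (-0.03). Over the 20122 genes with at least 10 UMIs the median log2 ratio there was 0.32, and the share of them below 0 was not counted. The ratio of Cd9, 0.321, lay below those of the short Apoe (0.339) and Trem2 (0.353). Over the 9 members, length and the ratio had a Spearman rho of 0.68 in the AHRfl/fl library and 0.73 in the AHRmKO library. Over all genes with at least 500 UMIs rho was 0.56 (11532 genes) and -0.01 (9967 genes), so the relation among members had a counterpart over all genes in the first library alone. The genes share libraries and depth, and these values are a description.

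**Figure D3:**
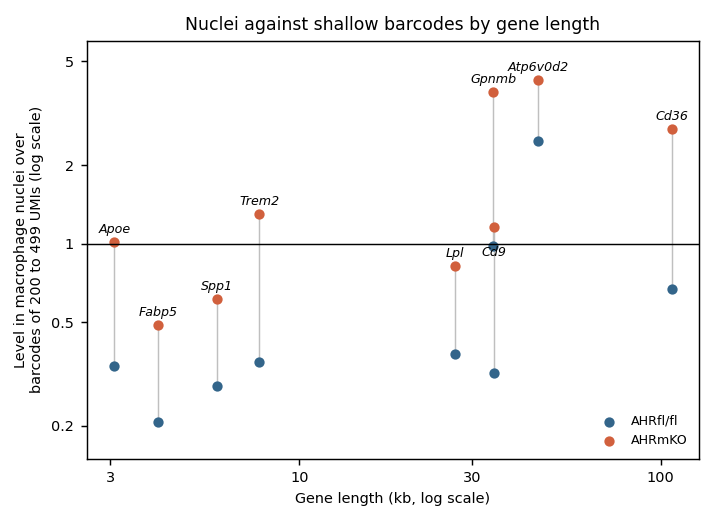
Level in macrophage nuclei over the level in barcodes of 200 to under 500 UMIs (vertical axis, log scale) against gene length in kilobases (horizontal axis, log scale), 1 point per gene and library, with a grey line joining the libraries. The ratio is higher in the AHRmKO library for every member, and Gpnmb goes from 0.982 to 3.801. Over all genes with at least 10 UMIs the median log2 of this ratio is 0.32 in the AHRfl/fl and 0.27 in the AHRmKO library. The share of genes with a higher ratio in the AHRmKO library was not counted.

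Divided by exonic length, macrophage levels of the AHRfl/fl library ran from 1339 CPM per exonic kilobase for Apoe and 762 for Spp1 through 192 for Gpnmb to 12.3 for Lpl. In the AHRmKO library Apoe (222), Spp1 (178), Gpnmb (165) and Cd36 (143) lay close together, and Lpl was again lowest at 10.9. The libraries count 3′ ends, with 1 UMI per captured molecule, so this division lowers genes with long exons and does not rank the genes. Lpl has the longest exonic length, 10478 bases. Without the division, Atp6v0d2 was lowest in the AHRfl/fl library (89.1 CPM) and Cd9 in the AHRmKO library (52.1).

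The members were spread unevenly over macrophage nuclei. With each nucleus thinned to 2000 UMIs, Apoe had a UMI in 97.5% of nuclei of the AHRfl/fl library (97.2 to 97.8) and 57.8% of the AHRmKO library (56.0 to 59.6), and Gpnmb in 73.8% and 62%. Spp1 had one in 81.7% and 29.8%. These shares need the background beside them, and in muscle fibre nuclei they were 84.2% and 15.2% for Apoe, 29.2% and 7.87% for Gpnmb and 61.5% and 12% for Spp1. Without thinning, the macrophage shares were 99.8% and 75.8% for Apoe, 85.8% and 73.3% for Gpnmb and 94.3% and 43.5% for Spp1.

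Atp6v0d2 was found in few nuclei. After thinning it had a UMI in 9.47% of macrophage nuclei of the AHRfl/fl library (8.88 to 10.1) and 5.99% of the AHRmKO library (5.17 to 6.89), against 0.99% and 0.38% of fibre nuclei (unthinned 14.1% and 8.95%, against 1.95% and 0.66%). Its level was the same in both libraries before thinning, and the smaller share in the AHRmKO library went with higher counts in the nuclei that had it, up to 60 UMIs against 35. Thinned, the log2 ratio between libraries was -0.50.

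Cd36 had a UMI in 23.4% and 28.4% of thinned macrophage nuclei, with 4 to 9 UMIs in 1.54% and 4.61%. In fibre nuclei the shares were 8.48% and 11.1%, in satellite cell nuclei 7.76% and 4.58% and in endothelial nuclei 34.4% and 42.5% (unthinned macrophage shares 34.7% and 39.7%). Trem2 had one in 22.5% and 14.1% (fibre 7.63% and 1.09%), Fabp5 in 26.3% and 12.7% (fibre 14.4% and 3.13%) and Lpl in 19.2% and 14.0% (fibre 10.9% and 8.02%). Unthinned, the macrophage shares of these 3 were 37.9% and 25.1%, 42.9% and 20.7%, and 32.1% and 23.7%. Cd9 had one in 20.9% and 8.16% of macrophage nuclei (unthinned 35.3% and 16.5%). This was above its share in fibre nuclei, 13.7% and 4.03%, and not above that in satellite cell nuclei, 22.5% and 8.65%. A median of 4 of the 9 members had a UMI in a thinned nucleus of the AHRfl/fl library and 2 in the AHRmKO library.

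**Figure D4:**
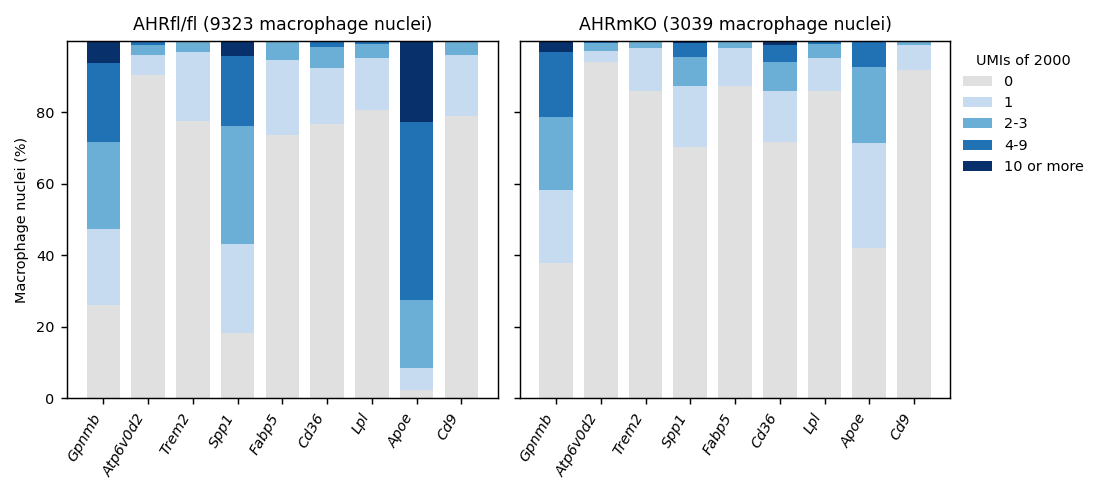
Share of macrophage nuclei (vertical axis, percent) by number of UMIs of each gene after thinning every nucleus to 2000 UMIs, 1 panel per library. The pale part with no UMI covers 90.5% and 94% of nuclei for Atp6v0d2, and for Apoe it grows from 2.49% in the AHRfl/fl library to 42.2% in the AHRmKO library.

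Within macrophage nuclei, the members parted by a set of 3 genes that mark resident and reparative macrophages, Mrc1, Cd163 and F13a1. After thinning, 24.7% of macrophage nuclei of the AHRfl/fl library and 16.8% of the AHRmKO library had at least 4 UMIs of the set, and 40.5% and 45.7% had none. Gpnmb was at 1659 in nuclei with none and 861 in those with at least 4 in the AHRfl/fl library, and at 1185 and 666 in the AHRmKO library (log2 ratios -0.95 and -0.83). Atp6v0d2 had like ratios, -1.01 and -0.82. For Trem2 (0.01 and 0.17) and Lpl (-0.11 and -0.03) the intervals took in 0 in both libraries. Spp1 (-0.28 and 0.33) and Cd36 (-0.18 and 0.42) had opposite signs in the libraries. Fabp5 was lower in both (-0.24 and -0.41), Cd9 was at -0.50 and at -0.47 (-1.07 to 0.08), and Apoe was at 0.14 and at -0.01 (-0.15 to 0.12).

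Nuclei with at least 2 Atp6v0d2 UMIs after thinning, 368 and 84, carried more of most other members than nuclei with none. Gpnmb was at 3495 against 1295 in the AHRfl/fl library and 2167 against 995 in the AHRmKO library (log2 ratios 1.43 and 1.12). Spp1 (1.44 and 0.97), Cd36 (1.33 and 1.17) and Cd9 (1.5 and 1.08) were also higher in both, and so was Fabp5 (0.50 and 0.92). Lpl was at 1.30 in the AHRfl/fl library and at 0.38 (-0.26 to 0.95) in the other, and Trem2 at 0.41 and at 0.29 (-0.50 to 0.99). Apoe went the other way, with log2 ratios of -0.14 (-0.20 to -0.08) and -0.72 (-1.11 to -0.36). In the AHRmKO library the nuclei with Atp6v0d2 were also deeper before thinning, with a median of 4973 UMIs against 3487.

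**Figure D5:**
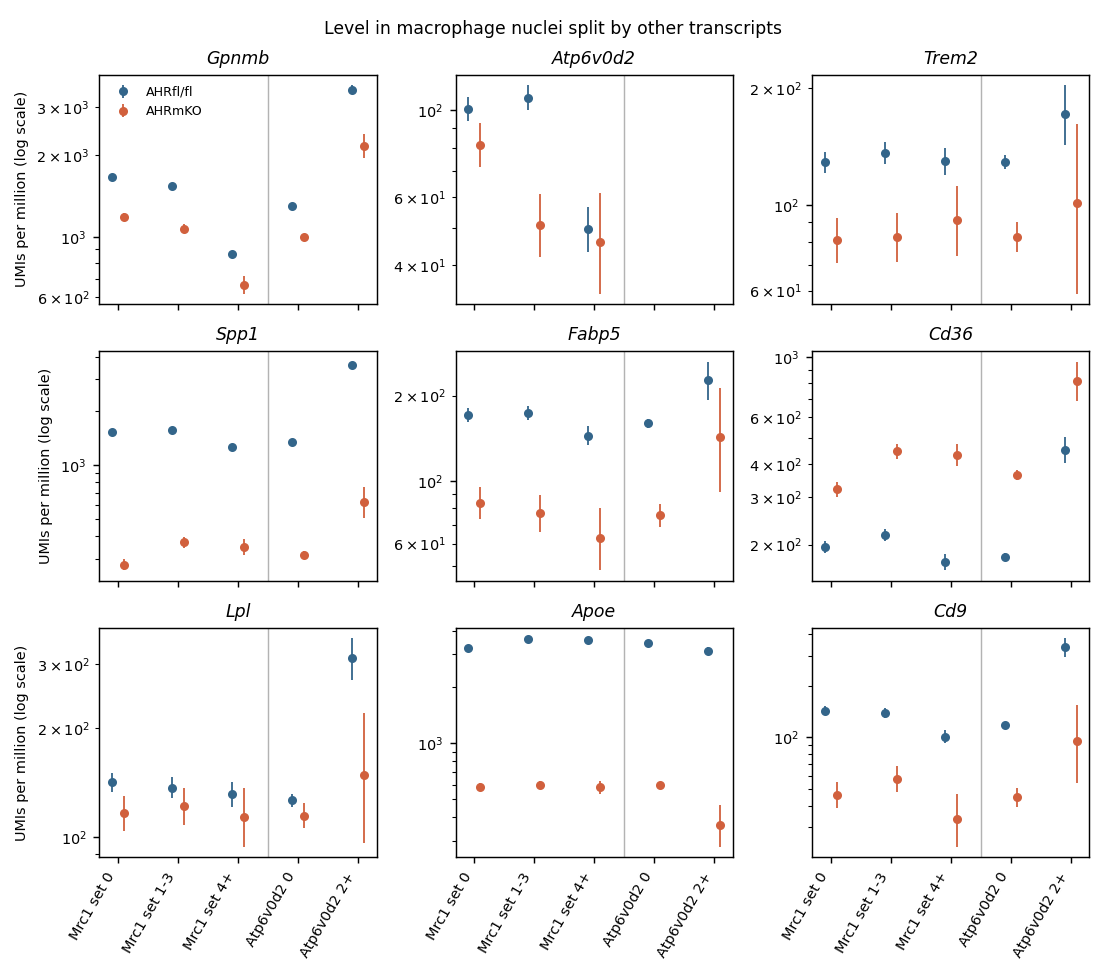
Level of each gene in CPM (vertical axes, log scale) in macrophage nuclei thinned to 2000 UMIs, split by UMIs of Mrc1, Cd163 and F13a1 summed (left of the grey line) and by UMIs of Atp6v0d2 (right), with exact Poisson 95% intervals. Gpnmb is lowest where the Mrc1 set has at least 4 UMIs, at 861 and 666, and highest with at least 2 Atp6v0d2 UMIs, at 3495 and 2167.

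Nuclei with at least 4 UMIs of cycling genes (Mki67, Top2a, Kif11, Cenpf and Cenpe), 610 and 511 after thinning, had less Atp6v0d2, with log2 ratios of -0.97 and -2.03 against the rest, and less Gpnmb (-0.51 and -0.33), Lpl (-0.40 and -0.72) and Spp1 (-0.47 and -0.25). They made up 6.54% of macrophage nuclei in the AHRfl/fl library and 16.8% in the AHRmKO library. Apoe (-0.48 and -0.14) was lower in both as well, and Fabp5 was at -0.32 and at -0.33 (-0.74 to 0.04). Cd9 went the other way in the AHRmKO library, with 0.57 (0.16 to 0.97), and was at -0.10 (-0.35 to 0.14) in the other. For Trem2 (0.03 and -0.06) and Cd36 (-0.11 and -0.15) the intervals took in 0.

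Pairs of members had low correlations from nucleus to nucleus, on counts that are sparse after thinning. Atp6v0d2 had a UMI in 9.47% and 5.99% of thinned macrophage nuclei and Cd9 in 20.9% and 8.16%. Counts this sparse can hold r near 0, so low values do not show that genes are unrelated. Over the 36 pairs, Pearson's r on thinned log counts ran from -0.04 to 0.27 in the AHRfl/fl library and from -0.16 to 0.29 in the AHRmKO library, over nuclei that share a library and its free RNA. The genes most like Gpnmb, out of 5619 compared, were Fnip2, a partner of folliculin (r 0.47 and 0.46), Lyst, which controls lysosome size (0.46 and 0.52), and Psap, the precursor of the lysosomal saposins (0.37 and 0.43). For Atp6v0d2 they were Atp6v1b2, another subunit of the pump (0.18 and 0.20), Myo1e (0.23 and 0.18) and the lysosomal protease gene Ctsk (0.18 and 0.20). For Spp1 they were Ctsl (0.27 and 0.26) and Lgals3 (0.23 and 0.30), and for Cd36 Lilr4b (0.28 and 0.34) and Alcam (0.27 and 0.31). For Apoe they were Ccnd3 (0.27 and 0.23) and Sat1 (0.26 and 0.21), neither of which was among the 6 like genes of any other member. No member appears among the like genes. Yet the lower r of Lpl with Spp1 was 0.153, above the 0.148 of Lpl with Lgals3, its first like gene. The like genes are thus not ranked against the members, and their r values are not set against those of the pairs.

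The wider pathway lists were written with earlier results of these data known, and their counts stand beside the 16.4% of all genes at least 2-fold lower and 3.18% at least 2-fold higher in macrophage nuclei. Of 33 genes of lipid uptake, storage and efflux, 3 were at least 2-fold lower in the AHRmKO library and none higher, with a median log2 ratio of 0.16. The lower ones were Cd68, a lysosomal glycoprotein of macrophages (120 and 22.1 CPM), Fabp3 (11 and 2.25) and Fabp4 (63.7 and 24.1). Nr1h3, the oxysterol receptor LXR alpha, which activates Apoe and cholesterol efflux, was at 32.7 and 64.6 (log2 ratio 0.97). The list's median in the shallow barcodes was -0.76, beside -0.11 over all genes there.

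Of 25 lysosome genes, 5 were at least 2-fold lower and 1 higher. Their median was -0.30 in macrophage nuclei and -2.18 in the shallow barcodes, beside -0.16 and -0.11 over all genes. Cd63 (404 and 57.1), Ctsl (371 and 112) and Ctsd (602 and 215) were lowest by ratio, and Tfe3, a factor that activates lysosome genes, was the higher one (39.2 and 82.1). Psap had the highest level of the list, 1357 and 1057. Of 16 other subunits and accessory proteins of the proton pump, 2 were at least 2-fold lower, Atp6v0c (170 and 80.3) and Atp6v1f (22.9 and 8.29), and none higher. The list's median was -0.07, beside 0.00 for Atp6v0d2.

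Partners of Trem2 differed by gene. Of 8 genes of its signalling, 1 was at least 2-fold lower and none higher, with a median of 0.16. That gene was Tyrobp, the adaptor through which Trem2 signals, at 199 and 63.7 (log2 ratio -1.64), and in the shallow barcodes its ratio was -3.61. Syk, the kinase that follows, was at 362 and 481. None of 8 osteopontin receptor genes passed 2-fold in either direction (median 0.19), and Cd44 was at 447 and 697.

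Of 9 other tetraspanins, 3 were at least 2-fold lower, Cd81 (101 and 10.7), Cd63 and Tspan3 (64.2 and 27.5), and 1 higher, Tspan4 (39.3 and 82.5), with a median of -0.57. Against other nuclei of the same library, macrophage nuclei had log2 ratios of -0.58 and -1.93 for Cd81 and of -0.08 and -0.31 for Cd63, while those of Cd9 were above 0. Cd53, a leukocyte tetraspanin, was at 104 and 94.

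Other measures differed between the macrophage nuclei of the libraries, and their part in these ratios was not tested. The mitochondrial share was 1.58% and 3.01%. Nuclei that also reached the marker threshold of another class were 23.6% and 18.8%. Of the 7 T and NK cell markers none was at 0 and their summed level was 125 and 161, of which Il7r gave 95.1 and 145 and the others together 29.6 and 16.0. The 5 neutrophil markers summed to 106 and 196, of which Csf3r gave 97.6 and 184, with 1 of the 5 at 0 in the AHRmKO library. The 6 monocyte markers summed to 286 and 118 and the 5 cycling genes to 443 and 1030. Of the markers of cells other than leukocytes, the 7 of fibroblasts summed to 1317 and 424, the 6 of immature myonuclei to 1073 and 432, the 7 of satellite cells to 402 and 265 and the 5 of tenocytes to 34.4 and 7.58, while the 9 of muscle fibres summed to 5689 and 6855, of which Ttn gave 3708 and 5205. None of these was at 0.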

How the data were processed

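Nuclear RNA of the tibialis anterior was counted with the Chromium 3′ HT chemistry in 2 libraries, 1 per group, and nothing was pooled or averaged. What the authors deposited is whole UMI counts for every gene in every listed barcode, neither normalised nor filtered to nuclei. The submitters' processing notes name Cell Ranger 7.0.1 and mm10, the file headers name the format of Cell Ranger 4, and the annotation, intron counting and use of strand are not given in the sources used here.

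From these counts, barcodes with at least 2000 UMIs were taken as nuclei, with no limit on the mitochondrial share and no doublets removed. Nuclei below 4 UMIs of the leukocyte genes took the marker class with the highest ratio to the library mean, if that was at least 2-fold over at least 4 UMIs, and otherwise no class. The classes kept and these thresholds were set after seeing the data, and names were rebuilt from markers. UMIs were summed per class and library. Thinning drew 2000 UMIs per nucleus without replacement. Free RNA was subtracted in 2 ways, and doublets were scored with Scrublet in scanpy 1.11.5 as an alternative (top 7.81% and 3.85% of barcodes left out). Trimmed-mean and median-ratio scaling factors came from edgeR 4.0.16 and DESeq2 1.42.0 in R 4.3.3, with no test. Other steps ran in Python 3.11.15 with numpy 2.4.6, scipy 1.17.1, pandas 2.3.3 and matplotlib 3.10.9. Ratios and intervals were tested on simulated data.

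The members and all lists were chosen with earlier results of these data known. The counts of 1 of these lists are not reported here. The members were always named. Of each list the text may name the 3 highest and 3 lowest ratios between libraries among genes with at least 30 UMIs, and the gene with the highest level. Like genes are the 6 with the highest of the lower correlations of the 2 libraries. They come from genes with at least 500 UMIs in macrophage nuclei of each library. Members, class markers and mitochondrial genes were left out beforehand. Gene positions are from GENCODE on GRCm38. No column of another series was used.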

Additional observations from a re-analysis of the deposited data

Results flagged for a closer look

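For 4 members the level in macrophage nuclei lay on opposite sides of the level in shallow barcodes in the libraries, below in the AHRfl/fl and above in the AHRmKO library, as for 10.5% of 18296 genes. The log2 ratio of macrophage nuclei over shallow barcodes was -0.03 for Gpnmb in the AHRfl/fl library and 1.92 in the AHRmKO library. For Trem2 it was -1.5 and 0.38, for Cd36 -0.58 and 1.46, and for Cd9 -1.64 and 0.21. The differences between the libraries were not tested, since each group has 1 library. For all 4 the intervals for counting error lay below 0 in the AHRfl/fl library and above 0 in the AHRmKO library. Apoe was at -1.56 and 0.03, and its interval in the AHRmKO library took in 0.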

How the results depend on the processing

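No paired analysis was possible because each group has 1 library. Settings were a minimum of 1000 or 5000 UMIs, a mitochondrial share of at most 5%, a leukocyte sum of at least 8 UMIs, nuclei reaching another class or high Scrublet scores left out, free RNA subtracted by fibre genes (levels then scaled to the UMIs left), thinning to 2000 UMIs, 2 other scalings and 5 CPM added. A UMI of Csf1r, Adgre1 or Mertk and the subtraction of fibre and satellite cell nuclei were added after seeing the data. Over all of these that gave a value, the log2 ratio between libraries ran from -2.70 to -2.18 for Apoe, from -2.18 to -1.61 for Spp1, from -1.43 to -0.75 for Cd9, from -1.26 to -0.38 for Fabp5, from -0.83 to -0.24 for Trem2 and from 0.97 to 3.28 for Cd36. With free RNA subtracted by fibre genes, Apoe (0 and 86.1 CPM), Trem2 (0 and 24.0) and Cd9 (0 and 14.7) had no ratio and turned in direction. Atp6v0d2 ran from -0.50 to 0.54. Gpnmb changed sign to 0.19 at a minimum of 5000 UMIs and to 0.88 with free RNA subtracted, and Lpl to 0.0012 with median-ratio scaling and to 0.19 with fibre and satellite cell nuclei subtracted.

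The count of members at least 2-fold lower in the AHRmKO library was 4, and it was 2 with fibre and satellite cell nuclei subtracted. That subtraction may take away too much of Cd9, 1 of the members it took from the count. With free RNA subtracted by fibre genes it was 0, but 6 members, all 4 lower ones among them, then stood at 0 in a library. They had no ratio and could not be counted. The count at least 2-fold higher was 1 and became 0 after thinning. Members with a UMI in at least 25% of macrophage nuclei were 8 in the AHRfl/fl library and 5 in the AHRmKO library. They were 4 in both after thinning, and in the second they were 4 at a minimum of 1000 UMIs and 8 at a minimum of 5000 UMIs. The share of all genes past 25% was not counted, so these counts only describe the members. Against other nuclei, 5 to 6 members in the AHRfl/fl library and 7 in the AHRmKO library were at least 2-fold higher under the 8 settings run for this comparison. Neither subtraction of free RNA was among them, nor were the other scalings or the added 5 CPM. Whether these counts hold with free RNA removed was thus not tested. With at least 50 UMIs or with any UMI per gene, 561 to 629 genes were at least 2-fold higher and 2951 to 3235 lower. The number of libraries limits every comparison between groups, and counting error does not measure the spread between mice.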

Other observations

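Outside macrophages, members that a class is known to make had ratios between the libraries of their own. Lpl, the lipase of fat cells, was higher in adipocyte nuclei of the AHRmKO library (log2 ratio 0.54) and in fibroblast nuclei (0.42). It was at -0.40 (-0.57 to -0.23) in muscle fibre nuclei, -0.96 in endothelial nuclei, -1.07 in satellite cell nuclei and -1.29 in the shallow barcodes. Cd36 was at 0.55 in muscle fibre nuclei, 0.39 in adipocyte nuclei and 0.25 in endothelial nuclei, and at -0.54 in the shallow barcodes. Cd9 was at -0.25 in endothelial nuclei, where its level was highest among the classes, and at -3.07 in the shallow barcodes. In the 5 named classes other than macrophages, Spp1 ran from -3.45 to -3.05 and Apoe from -4.05 to -3.23. The differences between classes were not tested.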
